A study of Mus musculus with 8 samples.

Results

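The transcripts of 10 genes of the circadian clock were followed in the colonic mucosa of mice with dextran sulfate sodium (DSS) colitis: the activators Arntl (Bmal1) and Npas2, the repressors Per1, Per2, Per3 and Ciart, the nuclear receptors Nr1d1 and Nr1d2 (REV-ERB alpha and beta), and the D-box factors Dbp and Tef. They were taken by symbol from the deposited tables of 17353 genes, in which all 10 were present, and all 10 passed the filter on low counts that left 13381 genes for testing. The list was drawn up from values of these same libraries, and the comparison that was used for it is not recorded. The members are therefore described by their values in every animal, and no p-value is printed for any of them. Members that pass a threshold are named or counted only beside the share or count of all genes, and nothing is read from this. A further 25 clock genes that were not on the list were read beside them, and 21 of these had enough counts to be tested.

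All mice were wild-type C57BL/6J males, their mucosa was collected on day 7, and each of the 4 groups held 2 animals. The Kuiyangling group received 3% DSS in the drinking water and enemas of Kuiyangling, a Chinese herbal preparation, at 10 g/kg. The mesalazine group received DSS and enemas of mesalazine, an aminosalicylate drug for ulcerative colitis, at 50 mg/kg. The DSS model group received DSS and saline enemas, and the control group received saline enemas with no DSS stated for it. Every enema had a volume of 0.2 ml. The mice were housed under 12 h of light and 12 h of darkness, and the labels give no hour of collection for any animal.

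In mammalian cells the proteins of Arntl and of Clock or its relative Npas2 bind E-boxes in DNA and switch on the Per and Cry genes, Ciart, Nr1d1, Nr1d2 and Dbp. The PER, CRY and CIART proteins return to inhibit these activators, and the REV-ERB receptors repress Arntl and Npas2 by competing with the ROR receptors for the same elements, so that transcripts of the activators and of their targets peak at different times of day. DBP, TEF and HLF activate genes through D-boxes, which NFIL3 represses. The clock runs in the intestinal epithelium, where it sets daily rhythms of cell division, barrier function and absorption.

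The promoters of the list show how these elements are shared. Windows of 250 bases before to 50 bases after a RefSeq transcription start (GRCm38.p6) were at hand for 9 of the 10 members, not for Per2, and 12 windows in all were searched on both strands for exact letters. The motifs were the E-box CACGTG, present in 7.15% of all 32851 windows of this length, the E-prime box CACGTT (4.68%), the D-box forms TTATGTAA (0.938%) and TTATGCAA (0.743%), and TAGGTCA, the core of the element bound by REV-ERB and ROR (2.61%). No motif overlaps another in the windows below. A match is a description of the letters and not a measured binding site. The 5 windows printed here hold the E-box, D-box and receptor-element matches of a repressor, of 2 Per genes, of a D-box factor and of an activator. The matches are in capitals, and each sequence runs 5′ to 3′ on the strand of its gene.
Ciart: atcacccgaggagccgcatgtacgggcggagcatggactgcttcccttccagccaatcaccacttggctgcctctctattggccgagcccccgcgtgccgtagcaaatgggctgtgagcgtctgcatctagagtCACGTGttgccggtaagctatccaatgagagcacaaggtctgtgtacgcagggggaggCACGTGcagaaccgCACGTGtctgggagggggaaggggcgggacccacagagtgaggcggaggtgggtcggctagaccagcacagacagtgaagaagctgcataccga
Per1: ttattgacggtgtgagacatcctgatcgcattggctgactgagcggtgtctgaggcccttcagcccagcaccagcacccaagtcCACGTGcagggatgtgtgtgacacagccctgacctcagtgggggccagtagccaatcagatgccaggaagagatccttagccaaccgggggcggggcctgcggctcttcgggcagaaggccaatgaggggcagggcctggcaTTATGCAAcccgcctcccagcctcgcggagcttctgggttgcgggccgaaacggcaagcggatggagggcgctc
Per3: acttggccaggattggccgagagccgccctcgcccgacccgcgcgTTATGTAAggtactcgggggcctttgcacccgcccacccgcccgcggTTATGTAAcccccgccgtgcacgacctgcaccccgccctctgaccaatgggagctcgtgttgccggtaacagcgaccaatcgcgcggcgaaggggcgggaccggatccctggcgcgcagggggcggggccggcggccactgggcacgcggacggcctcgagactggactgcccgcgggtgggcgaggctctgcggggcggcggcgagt
Tef: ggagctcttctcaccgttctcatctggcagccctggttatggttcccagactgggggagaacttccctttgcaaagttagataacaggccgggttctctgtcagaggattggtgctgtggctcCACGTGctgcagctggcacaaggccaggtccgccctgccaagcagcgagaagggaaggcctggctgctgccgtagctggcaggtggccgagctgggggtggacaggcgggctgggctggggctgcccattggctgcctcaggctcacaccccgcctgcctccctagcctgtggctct
Arntl: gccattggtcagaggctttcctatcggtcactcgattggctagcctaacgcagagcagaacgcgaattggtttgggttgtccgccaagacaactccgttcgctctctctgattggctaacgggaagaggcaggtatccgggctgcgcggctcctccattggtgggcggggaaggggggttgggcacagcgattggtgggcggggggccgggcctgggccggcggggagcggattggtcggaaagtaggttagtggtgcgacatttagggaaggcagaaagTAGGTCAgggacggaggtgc

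The Ciart window (chr3:95882179-95882478, minus strand) held 3 E-boxes, beginning 116, 58 and 44 bases before the start. The Per1 window (chr11:69098699-69098998, plus strand) held an E-box 166 bases and a D-box 24 bases before the start, and the Per3 window (chr4:151044616-151044915, minus strand) held a D-box at 205 and again at 158 bases. The Tef window (chr15:81802423-81802722, plus strand) held an E-box at 127 bases, and a second Tef start had one at 138 bases. The receptor-element core of Arntl (chr7:113207261-113207560, plus strand) lay 31 bases after the second of its 2 starts. An E-prime box on the opposite strand lay 28 bases before the start of Nr1d1, and the windows of Dbp, Nr1d2 and Npas2 held none of these letters.

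Depth was similar, with 15560946 to 17843715 counts per library. Expression is given as CPM, counts scaled to a library size that TMM adjusts for composition. A pair of libraries stood apart: mesalazine 1 and control 2 had mean Spearman correlations with the others of 0.963 and 0.962, against 0.972 to 0.979 for the rest. The share of counts in ribosomal protein genes was 12.7% in mesalazine 1 and 3.35% to 6.68% in the other libraries, and levels relative to the other libraries fell with gene length in mesalazine 1 (rho = -0.534 across genes) and DSS model 2 (-0.433) and rose with it in control 1 (0.444) and Kuiyangling 2 (0.385). The summed markers of the colon epithelium, with all 9 found, were at 17472 and 19660 CPM in Kuiyangling mice, 16311 and 21029 CPM in mesalazine mice, 23024 and 27049 CPM in DSS model mice and 26103 and 27530 CPM in controls, so the label of the tissue held. Muc2 made up a large part of these sums and ran from 3950 CPM in mesalazine 2 to 12860 CPM in control 1, so their differences do not measure the amount of epithelium. The 5 neutrophil markers summed to 5.24 to 8.05 CPM in Kuiyangling mice, 8.76 to 22.2 CPM in mesalazine mice, 27.0 to 47.5 CPM in DSS model mice and 0.149 to 0.432 CPM in controls, where S100a9, Cxcr2 and Retnlg were at 0. The 4 fibroblast markers summed to 89.0 to 116 CPM in Kuiyangling mice, 49.9 to 93.3 CPM in mesalazine mice, 49.1 to 80.6 CPM in DSS model mice and 6.41 to 17.6 CPM in controls. The part of these cell types in the values below was not tested.

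**Figure D1:**
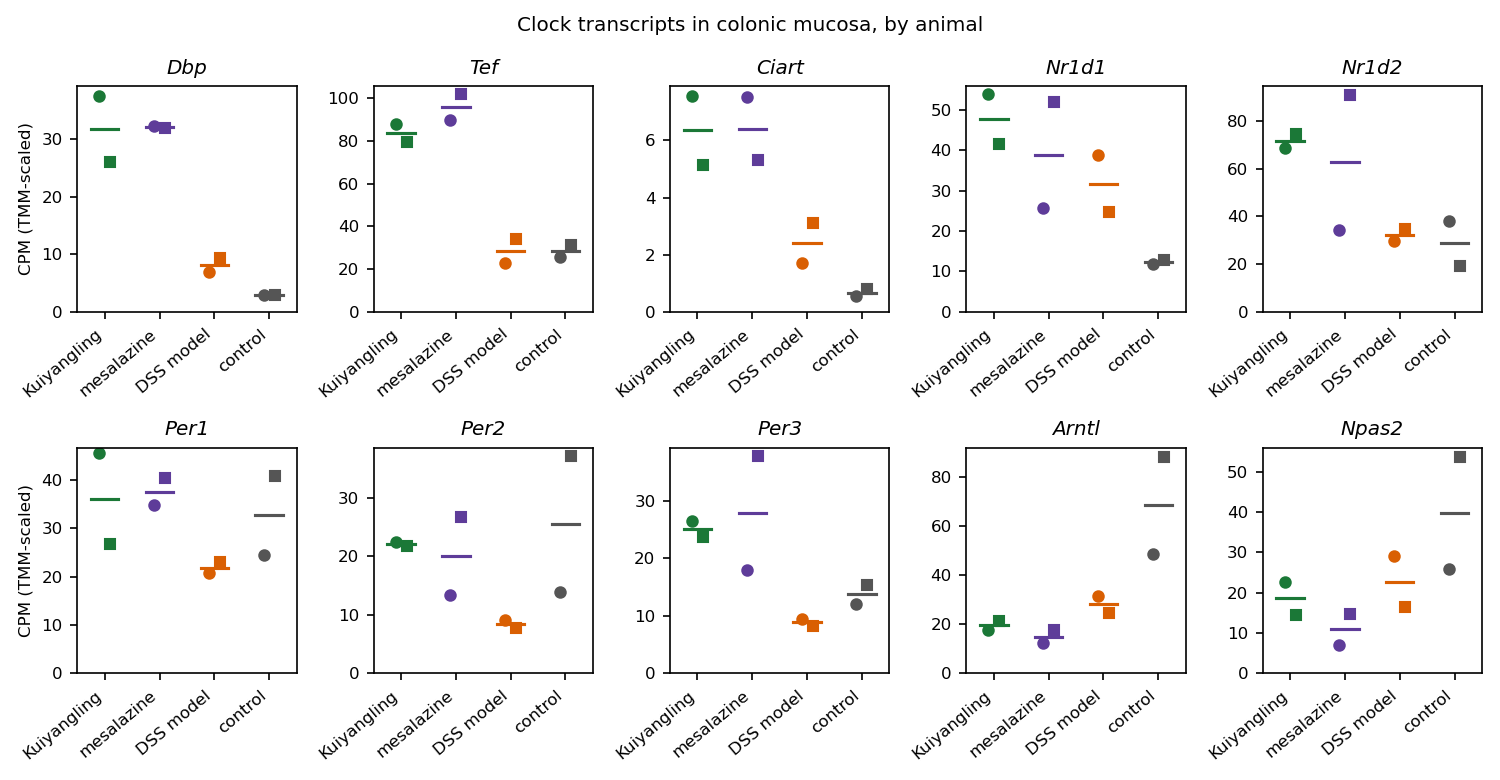
Level of each listed clock gene (CPM, linear axis from 0) in every library, by group; circles are replicate 1, squares replicate 2 and bars the mean of the 2 animals. Dbp, Tef and Ciart stand higher in all 4 treated animals than in the other 4, and Arntl stands highest in the 2 controls.

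Across the list, the treated animals had the highest levels of Dbp, Tef and Ciart and the lowest of Arntl. In Kuiyangling mice Dbp was 11.0 times and Ciart 9.40 times the control level, and in mesalazine mice 11.1 times and 9.49 times. Arntl stood 3.49 times lower in Kuiyangling mice and 4.55 times lower in mesalazine mice than in controls. The means of the DSS model mice lay between for Dbp, Ciart, Nr1d1 and Arntl, while their means of Per1, Per2 and Per3 were the lowest of the 4 groups. In RNA from whole mucosa, fewer cells that express a gene and less RNA per cell cannot be told apart.

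Dbp encodes the D-box activator whose transcript is among the strongest rhythmic outputs of the clock in mouse tissues. It was at 37.5 and 26.1 CPM in Kuiyangling mice, 32.3 and 31.9 CPM in mesalazine mice, 6.98 and 9.41 CPM in DSS model mice and 2.87 and 2.90 CPM in controls. All 4 treated animals stood above both DSS model animals, which stood above both controls, and the Kuiyangling and mesalazine animals overlapped. The log2 change was 3.46 (SE 0.32) for Kuiyangling against control, 3.47 (SE 0.32) for mesalazine against control and 1.5 (SE 0.31) for the DSS model against control. Set against the DSS model it was 1.95 (SE 0.30) with Kuiyangling and 1.97 (SE 0.30) with mesalazine. Without any single library the values stayed between 3.15 and 3.70 for the treatments against control, between 1.28 and 1.71 for the DSS model against control and between 1.64 and 2.20 for the treatments against the DSS model. Dbp shares 539 of its 2993 annotated exon bases (18.0%) with Sphk2 on the opposite strand, and the strand setting of the counting is not given in the sources used here. Sphk2 itself was at 74.2 and 85.5 CPM in Kuiyangling mice, 79.4 and 96.7 CPM in mesalazine mice, 77.4 and 94.2 CPM in DSS model mice and 80.7 and 116 CPM in controls, with all 4 groups overlapping.

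Tef, the second D-box activator, separated the treated animals from the others without a step between DSS model and control mice. Its levels were 88.0 and 79.4 CPM in Kuiyangling mice, 89.8 and 102 CPM in mesalazine mice, 22.8 and 34.2 CPM in DSS model mice and 25.7 and 31.1 CPM in controls. Every treated animal was above every other animal, and the DSS model and control animals overlapped. The log2 change of Tef was 1.55 (SE 0.29) for Kuiyangling and 1.75 (SE 0.29) for mesalazine against the DSS model, 1.56 (SE 0.29) and 1.75 (SE 0.29) against control, and 0.01 (SE 0.28) for the DSS model against control.

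Ciart, a repressor that binds the activator complex, resembled Dbp at a lower level. It stood at 7.55 and 5.14 CPM in Kuiyangling mice, 7.50 and 5.31 CPM in mesalazine mice, 1.70 and 3.12 CPM in DSS model mice and 0.545 and 0.802 CPM in controls. The order of the groups was that of Dbp, again with the treatments overlapping. The control values rest on 11 and 13 counts, so that a fold against them is imprecise. The log2 change of Ciart was 3.23 (SE 0.51) for Kuiyangling and 3.25 (SE 0.51) for mesalazine against control, 1.84 (SE 0.51) for the DSS model against control, and 1.40 (SE 0.46) and 1.41 (SE 0.46) for Kuiyangling and mesalazine against the DSS model. On the scale of log2(FPKM + 1), which understates changes of low genes, the first 2 values were 1.53 and 1.42.

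Nr1d1 and Nr1d2, the haem-binding repressors of the activator genes, were more variable between animals. Nr1d1 was at 53.8 and 41.5 CPM in Kuiyangling mice, 25.7 and 52.0 CPM in mesalazine mice, 38.7 and 24.6 CPM in DSS model mice and 11.9 and 12.9 CPM in controls. All 6 DSS-exposed animals stood above the controls, by a log2 change of 1.94 (SE 0.38) with Kuiyangling, 1.65 (SE 0.37) with mesalazine (1.05 without mesalazine 2) and 1.35 (SE 0.37) in the DSS model. Relative to the DSS model, Nr1d1 was at 0.59 (SE 0.36) with Kuiyangling and 0.30 (SE 0.36) with mesalazine, the second with overlapping animals and a sign that turned without mesalazine 2 (-0.31). Nr1d1 shares 263 of 3077 exon bases (8.55%) with Thra on the opposite strand, which ranged from 30.01 to 49.4 CPM over all libraries.

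Nr1d2 was at 68.7 and 74.6 CPM in Kuiyangling mice, 34.3 and 91.0 CPM in mesalazine mice, 29.9 and 34.7 CPM in DSS model mice and 38.1 and 19.2 CPM in controls. The Kuiyangling animals stood above the DSS model and control animals, while mesalazine 1 lay among the DSS model and control animals and mesalazine 2 was the highest of all. The log2 change of Nr1d2 was 1.15 (SE 0.45) for Kuiyangling and 0.96 (SE 0.45) for mesalazine against the DSS model. The mesalazine value was 0.08 without mesalazine 2 and 1.48 without mesalazine 1. Against control it was 1.32 (SE 0.45) with Kuiyangling, 1.13 (SE 0.45) with mesalazine (0.25 without mesalazine 2) and 0.17 (SE 0.45) in the DSS model, and the last turned to -0.24 without control 2.

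The Per genes encode the PERIOD repressors, of which PER1 and PER2 carry most of the feedback and PER3 is the least needed for the rhythm. Per3 was at 26.6 and 23.6 CPM in Kuiyangling mice, 17.9 and 37.8 CPM in mesalazine mice, 9.50 and 8.22 CPM in DSS model mice and 12.1 and 15.4 CPM in controls. The treated animals were all above the controls and the DSS model animals were all below them. Its log2 change against the DSS model was 1.5 (SE 0.36) with Kuiyangling and 1.65 (SE 0.37) with mesalazine (1.01 without mesalazine 2). Against control it was 0.87 (SE 0.36) with Kuiyangling, 1.02 (SE 0.36) with mesalazine (0.38 without mesalazine 2) and -0.63 (SE 0.36) in the DSS model.

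Per2 was at 22.4 and 21.8 CPM in Kuiyangling mice, 13.4 and 26.7 CPM in mesalazine mice, 9.06 and 7.76 CPM in DSS model mice and 14.0 and 37.1 CPM in controls. The DSS model animals were the lowest, and the controls overlapped both treated groups. The log2 change of Per2 was 1.39 (SE 0.47) for Kuiyangling and 1.26 (SE 0.47) for mesalazine against the DSS model (0.67 without mesalazine 2), and -1.60 (SE 0.47) for the DSS model against control, which was -0.73 without control 2 and -2.15 without control 1. Against control, Kuiyangling stood at -0.21 (SE 0.45) and mesalazine at -0.34 (SE 0.45), and these turned to 0.66 and 0.52 without control 2.

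Per1 differed least between groups. It was at 45.5 and 26.8 CPM in Kuiyangling mice, 34.7 and 40.3 CPM in mesalazine mice, 20.7 and 22.9 CPM in DSS model mice and 24.6 and 40.8 CPM in controls. The DSS model animals were below all others, and the other groups overlapped. Against the DSS model the log2 change of Per1 was 0.73 (SE 0.34) for Kuiyangling, or 0.27 without Kuiyangling 1, and 0.78 (SE 0.34) for mesalazine. For the DSS model against control it was -0.58 (SE 0.34), or -0.17 without control 2.

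Arntl, the partner without which the core clock stops in mice, was at 17.8 and 21.3 CPM in Kuiyangling mice, 12.5 and 17.5 CPM in mesalazine mice, 31.5 and 24.7 CPM in DSS model mice and 48.7 and 88.1 CPM in controls. No group overlapped another, and the order from the lowest was mesalazine, Kuiyangling, DSS model and control. The log2 change of Arntl was -1.80 (SE 0.34) for Kuiyangling, -2.19 (SE 0.35) for mesalazine and -1.28 (SE 0.34) for the DSS model against control, and without control 2 these were -1.31, -1.70 and -0.79. With an offset for gene length the value of the DSS model was -0.82. Relative to the DSS model it was -0.52 (SE 0.33) with Kuiyangling and -0.91 (SE 0.34) with mesalazine.

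Npas2, which can take the place of CLOCK beside ARNTL, was at 22.8 and 14.4 CPM in Kuiyangling mice, 7.08 and 14.7 CPM in mesalazine mice, 29.1 and 16.4 CPM in DSS model mice and 26.0 and 53.7 CPM in controls. Both treated groups lay below the controls, and the DSS model animals overlapped the Kuiyangling animals and the controls. The log2 change against control was -1.10 (SE 0.47) with Kuiyangling, -1.86 (SE 0.48) with mesalazine and -0.81 (SE 0.47) in the DSS model, and without control 2 these were -0.48, -1.25 and -0.19. The mesalazine value was -2.49 without mesalazine 2. Against the DSS model Npas2 stood at -0.29 (SE 0.47) with Kuiyangling, where the sign turned without DSS model 1 (0.18), and at -1.06 (SE 0.48) with mesalazine, which was -1.69 without mesalazine 2.

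**Figure D2:**
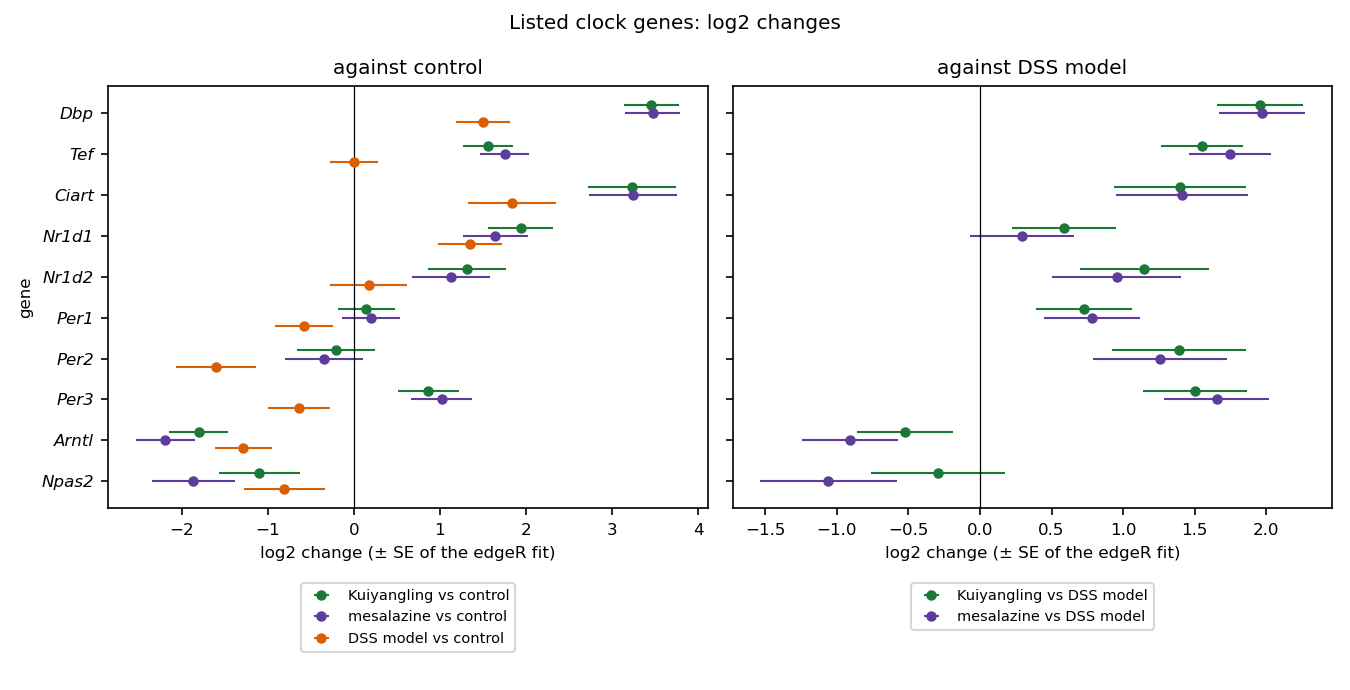
Log2 change of each listed clock gene (points, with bars of 1 standard error of the edgeR fit of all 8 libraries) against control on the left and against the DSS model on the right; the vertical line marks no difference. Against the DSS model the 8 genes other than Arntl and Npas2 lie above 0 with both treatments, and both activators lie below 0.

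The 6 comparisons share groups, so their values are not independent of each other. Called genes are those with an adjusted p under 0.05 over all 13381 tested genes by edgeR's quasi-likelihood test with Benjamini-Hochberg adjustment. With Kuiyangling against control 2 of 10 members were called, Dbp and Ciart, both higher, beside 0.239% of all genes (0.187% higher and 0.0523% lower). With mesalazine against control 4 were called, Dbp, Ciart and Tef higher and Arntl lower, beside 0.673% (0.433% higher and 0.239% lower). For the DSS model against control 0 members were called, beside 0.247% (0.194% higher and 0.0523% lower). With Kuiyangling or mesalazine against the DSS model, and between the treatments, 0 members were called, and the share of all genes called was 0% as well. Unadjusted p-values were under 0.05 for 6 members with Kuiyangling and 7 with mesalazine against the DSS model, beside 3.56% and 5.49% of all tested genes. They were under 0.05 for 5 members in the DSS model against control, beside 14.8%, and for 0 between the treatments, beside 1.90%. DESeq2 called 2, 3, 4 and 0 members in these 4 comparisons, beside 13, 91, 435 and 0 of 17353 genes. Because the list was chosen on these libraries, nothing is read from these counts.

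Kuiyangling and DSS model animals did not overlap for 9 of 10 members, 8 of them higher with Kuiyangling and Arntl lower, beside 43.0% of all genes (21.9% higher and 21.1% lower). With mesalazine against the DSS model 8 of 10 did not overlap, 6 higher and 2 lower, beside 27.7% (14.0% and 13.8%), and the exceptions were Nr1d1 and Nr1d2. For the DSS model against control 3 members were higher (Dbp, Ciart and Nr1d1) and 4 lower (Arntl, Per1, Per2 and Per3) without overlap, beside 53.4% (27.1% and 26.3%). Against control, Kuiyangling had 6 higher and 2 lower beside 49.1% (25.9% and 23.2%), and mesalazine 5 higher and 2 lower beside 45.7% (23.6% and 22.1%). The members' median log2 change was 1.27 for Kuiyangling and 1.11 for mesalazine against the DSS model, 1.09 and 1.07 against control, and -0.29 for the DSS model against control. All tested genes had medians between -0.04 and 0.04 in these comparisons. The list was chosen on these libraries, so nothing is read from these shares or medians. The members' medians also take in genes of both directions.

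Kuiyangling and mesalazine animals did not overlap for 2 of 10 members, 1 higher and 1 lower, beside 22.1% of all genes (10.6% higher and 11.6% lower), a share near that of all genes. Arntl was higher with Kuiyangling, by a log2 change of 0.38 (SE 0.34), and Tef lower, at -0.19 (SE 0.28). The estimate for Dbp was -0.02 (SE 0.28) and for Ciart -0.01 (SE 0.44), while the widest, Npas2, was 0.77 (SE 0.48) with overlapping animals and 1.39 without mesalazine 2. Without that library Nr1d1 stood at 0.89, Nr1d2 at 1.07 and Per3 at 0.49, against 0.29, 0.19 and -0.15 with it. With 2 animals each, these standard errors leave differences of such sizes unresolved, and they do not show that the treatments act alike.

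**Figure D3:**
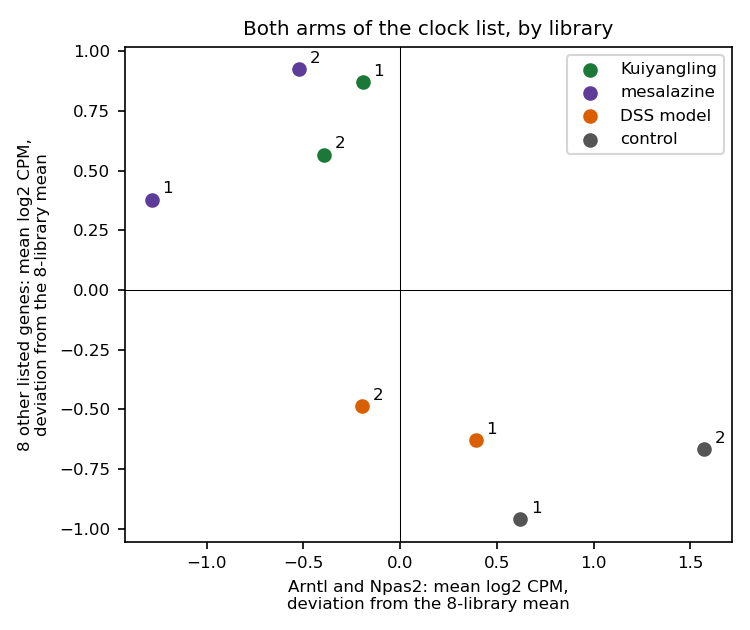
Each library by the mean log2 CPM of Arntl and Npas2 (x axis) and of the 8 other listed genes (y axis), both as the deviation from the mean of all 8 libraries; numbers are replicates. The 4 treated libraries lie at the upper left, the 2 controls at the lower right, and the DSS model libraries at the lower centre.

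Averaged over the genes of each kind, the 8 repressors, receptors and D-box factors stood above the mean of all libraries by 0.87 and 0.57 log2 CPM in Kuiyangling mice and 0.38 and 0.92 in mesalazine mice, and deviated by -0.63 and -0.49 in DSS model mice and by -0.96 and -0.67 in controls. Arntl and Npas2 together deviated by -0.19 and -0.39 in Kuiyangling mice, -1.28 and -0.52 in mesalazine mice, 0.39 and -0.20 in DSS model mice and 0.62 and 1.57 in controls. DSS model mice and controls were both low for the first average, and DSS model mice lay between controls and treated mice for the second, with DSS model 2 level with Kuiyangling 1. Over the 8 libraries, which include the group differences that the list was chosen on, Dbp had a Pearson correlation of log2 CPM of 0.98 with Ciart, 0.92 with Tef, 0.84 with Nr1d1 and -0.92 with Arntl, and of 0.11 with Per2 and 0.41 with Per1.

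Replicates of a group differed most for Nr1d2, Per2 and Per3. The higher animal had 2.66 times the lower one's Nr1d2 with mesalazine and 2.66 times its Per2 in controls, and Per3 differed 2.11-fold with mesalazine. Dbp differed 1.44-fold between the Kuiyangling animals, 1.01-fold between mesalazine animals, 1.35-fold between DSS model animals and 1.01-fold between controls. Mesalazine 1, which had the higher ribosomal share, had lower Per2, Per3, Nr1d1, Nr1d2, Arntl and Npas2 than mesalazine 2, and higher Ciart. Whether its composition plays a part in this was not tested beyond the values without that library.

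Levels can be compared between genes per length, in the authors' FPKM. As the mean of all 8 libraries, Nr1d1 was the highest of the list at 11.9 FPKM, followed by Nr1d2 at 10.3, Tef at 9.62, Dbp at 7.48, Npas2 at 5.48, Per1 at 3.79, Per2 at 3.18, Per3 at 2.81, Arntl at 1.74 and Ciart at 1.64. The ranges of neighbours in this order overlapped widely. Dbp ran from 1.18 FPKM in a control to 15.3 FPKM in a Kuiyangling mouse. It averaged 13.4 ± 2.67 FPKM in Kuiyangling mice (SD, n = 2), where Nr1d1, Nr1d2 and Tef were higher, and 1.24 ± 0.0926 FPKM in controls (SD, n = 2), where only Ciart was lower. The FPKM of Arntl assume a length of 19267 bases, against 7523 bases of annotated exons in GENCODE M21, which lowers its place in the order.

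The other clock genes were not on the list, and some differed as much as members did, such as Cry2 in DSS model mice. The members were chosen on these libraries, so the sizes of the 2 sets are not compared. Of the 21 tested, 0 were called in any of the 6 comparisons by edgeR, beside the shares of all genes given above. For the DSS model against control 3 of the 21 had an unadjusted p under 0.05, all lower, beside 14.8% of all tested genes, and their median log2 change was -0.19. They included Cry2 at -1.55 (SE 0.33; adjusted p = 0.0993) and Cry1 at -1.04 (SE 0.38; adjusted p = 0.272). DESeq2 called 2 of the listed 25, among them Cry2 (adjusted p = 0.00381), and over all alternatives the adjusted p of Cry2 ran from 0.00381 to 0.629. Without control 2 the changes of Cry2 and Cry1 were -1.17 and -0.53.

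**Figure D4:**
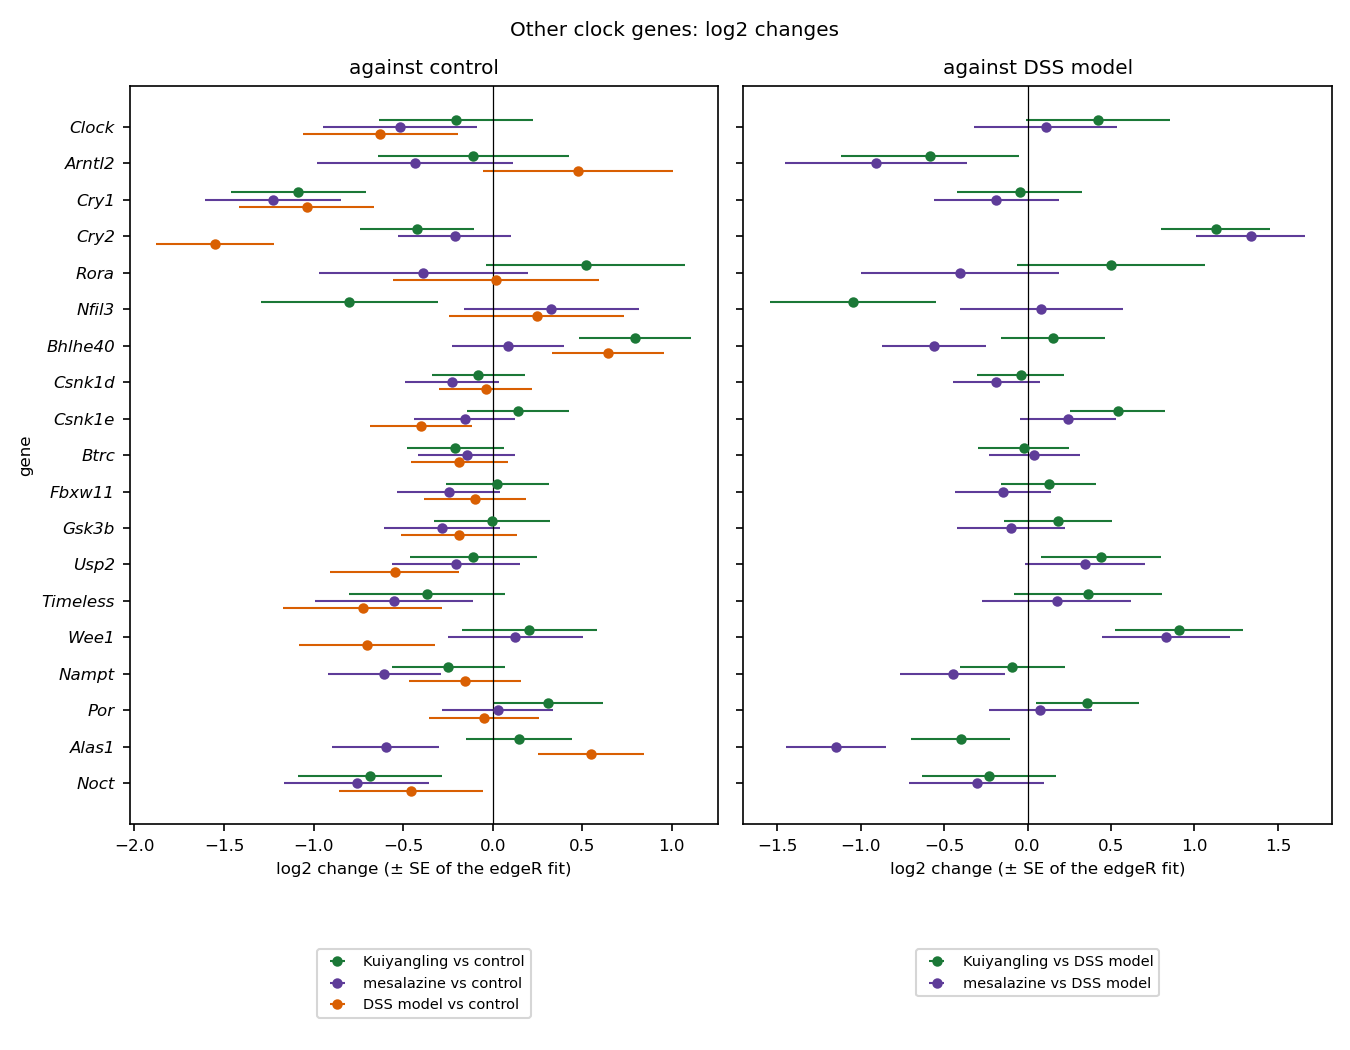
Log2 change (points, with bars of 1 standard error of the edgeR fit) of tested clock genes outside the list, against control on the left and against the DSS model on the right. Cry2 lies furthest below 0 for the DSS model against control, at -1.55, and above 0 with both treatments against the DSS model.

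Cry2, which encodes a cryptochrome that blocks the activator complex together with the PER proteins, was at 27.4 and 21.9 CPM in Kuiyangling mice, 29.0 and 28.0 CPM in mesalazine mice, 13.6 and 8.95 CPM in DSS model mice and 25.3 and 40.8 CPM in controls. As with Per1 and Per2, the DSS model animals were the lowest. Its log2 change against the DSS model was 1.13 (SE 0.33; adjusted p = 0.996) with Kuiyangling and 1.34 (SE 0.33; adjusted p = 0.504) with mesalazine. Cry1, the other cryptochrome, was highest in the controls, as Arntl was. It was at 26.5 and 21.8 CPM in Kuiyangling mice and 15.0 and 28.7 CPM in mesalazine mice. DSS model mice had 25.9 and 24.0 CPM, and controls 35.9 and 66.6 CPM. All 6 DSS-exposed animals lay below the controls, and the log2 change of Cry1 was -1.09 (SE 0.38; adjusted p = 0.329) with Kuiyangling and -1.23 (SE 0.38; adjusted p = 0.131) with mesalazine. Against the DSS model, unlike Arntl, Cry1 stood at -0.05 (SE 0.38) with Kuiyangling and -0.19 (SE 0.38) with mesalazine, with overlapping animals in both. Its correlation with Arntl over the 8 libraries, which include the high controls, was 0.91, as a description. Clock itself, at 51.8 and 80.8 CPM in Kuiyangling mice, 29.3 and 77.3 CPM in mesalazine mice, 55.8 and 43.2 CPM in DSS model mice and 87.5 and 65.4 CPM in controls, overlapped between treated and control animals.

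Among the genes that share DNA elements with the list, Hlf, the third D-box activator, was too low to be tested, with 6 and 9 counts in Kuiyangling mice, 5 and 13 in mesalazine mice, 0 and 1 in DSS model mice and 1 and 0 in controls. Its scaled ratio of treated to control was 15.4 with Kuiyangling (exact 95% counting interval 2.37 to 649) and 21 with mesalazine (3.31 to 873), and treated to DSS model it was 13.1 (2.02 to 552) and 17.8 (2.82 to 743), with intervals that cover counting error only. So Hlf had counts in all 4 treated animals and at most 1 in any other. Nfil3, the repressor at the same D-boxes, was at 11.5 and 7.27 CPM in Kuiyangling mice, 30.1 and 10.8 CPM in mesalazine mice, 23.0 and 15.6 CPM in DSS model mice and 11.7 and 20.9 CPM in controls, and its log2 change was -1.05 (SE 0.50; adjusted p = 0.996) with Kuiyangling against the DSS model and -1.13 (SE 0.50; adjusted p = 0.999) against mesalazine, which was -0.21 without mesalazine 1.

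With Kuiyangling against the DSS model, 2 of the 21 had an unadjusted p under 0.05, both higher (Cry2 and the cell cycle kinase gene Wee1, an E-box target, at 0.91, SE 0.38), beside 3.56% of all genes. With mesalazine against the DSS model 2 did, Cry2 higher and Alas1, the first enzyme of haem synthesis, lower at -1.15 (SE 0.30; adjusted p = 0.523), beside 5.49%, and DESeq2 called Alas1 (adjusted p = 0.0497). Between the treatments 3 did, with the repressor gene Bhlhe40 at 0.71 (SE 0.31), Alas1 at 0.75 (SE 0.30) and Nfil3, beside 1.90%, and DESeq2 called 0. Against control 2 did with Kuiyangling, Cry1 lower and Bhlhe40 higher (0.80, SE 0.31), beside 10.3% of all genes, and 1 with mesalazine, Cry1, beside 20.0%, where DESeq2 called Cry1 (adjusted p = 0.0416). The 8 tested regulators of clock protein stability and phosphorylation, among them the kinase genes Csnk1d and Csnk1e and the F-box gene Btrc, had 0 unadjusted p under 0.05 in every comparison. DESeq2 called 0 of these 8.

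The remaining clock genes were not called by edgeR, which with 2 animals a group does not show that they varied little. Among the tested genes named here, the highest library over the lowest ran from 1.71-fold for Fbxw11 to 3.19-fold for Timeless. Arntl2 (a paralog of Arntl), the receptor gene Rora and the outputs Nampt, Por and Noct had adjusted p-values of at least 0.318 by edgeR in all 6 comparisons. That lowest value belonged to Nampt, the rate-limiting enzyme of NAD salvage, with mesalazine against control (log2 change -0.61, SE 0.32), and Noct, a circadian phosphatase, was next at -0.76 (SE 0.40; adjusted p = 0.327), or -0.16 without control 2. Among the regulators, Fbxw11, Gsk3b, Usp2 and Timeless had adjusted p-values of at least 0.433 throughout. Bhlhe41, Fbxl21 and Rorb joined Hlf below the filter, with at most 10, 14 and 3 counts in any library.

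**Figure D5:**
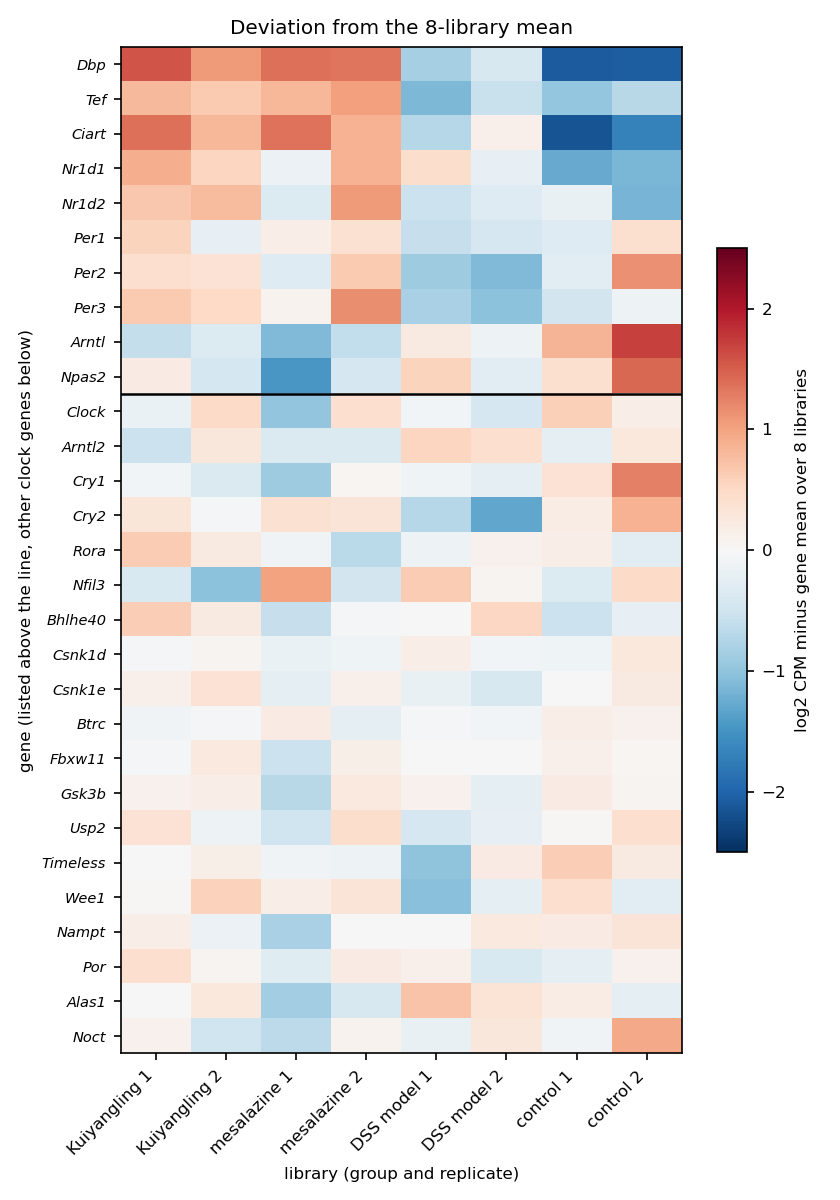
Log2 CPM of the 10 listed clock genes (above the line) and of other tested clock genes (below it) in each library, as the deviation from the mean of the gene over all 8 libraries; red is above and blue below that mean. Dbp, Tef and Ciart are red in the 4 treated libraries, and Arntl and Cry1 are reddest in control 2.

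The colours of the heat map set the listed genes beside the rest of the clock: Dbp ran from a deviation of -2.07 in control 1 to 1.58 in Kuiyangling 1, the largest span of the genes shown, followed by Ciart, from -2.16 in control 1 to 1.37 in Kuiyangling 1. Control 2 had the highest Arntl, Npas2, Per2, Cry1, Cry2 and Noct of all libraries. That library also held the highest sum of the 5 B cell markers, at 44.7 CPM against 0.842 CPM in control 1, and whether this moved the clock genes was not tested.

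Glucocorticoids and growth signals can reset peripheral clocks, through Per1 among others, so genes that respond to them were read as well. Of 7 glucocorticoid-induced genes 1 was called, Depp1, which rose with mesalazine against control (log2 change 4.02, SE 0.51; adjusted p = 0.0216; 3.41 without mesalazine 1), beside the 0.673% of all genes. Over all alternatives the adjusted p of Depp1 ran from 8.18e-11 to 0.173. The list's medians were 0.54 with Kuiyangling and 0.72 with mesalazine against the DSS model, and -1.43 for the DSS model against control. At an unadjusted p under 0.05, 1 of 7 (again Depp1) was higher with Kuiyangling and 3 with mesalazine against the DSS model, beside 3.56% and 5.49% of all genes, and 4 were lower for the DSS model against control, beside 14.8%. This list was chosen with earlier results of these data known, so nothing is read from the call of Depp1 or from these counts. Tsc22d3, which encodes the glucocorticoid-induced leucine zipper, was at 38.9 and 37.1 CPM in Kuiyangling mice, 40.9 and 47.8 CPM in mesalazine mice, 56.0 and 30.4 CPM in DSS model mice and 77.2 and 156 CPM in controls, and did not follow the order of Dbp. The group means of Fkbp5 did, at 306 CPM with Kuiyangling, 451 CPM with mesalazine, 275 CPM in the DSS model and 234 CPM in controls. Its Kuiyangling, DSS model and control animals overlapped. The means of Depp1 had that order too, with DSS model and control animals overlapping, and those of the other genes of the list did not. Of 7 immediate early genes 0 were called in any comparison by edgeR, and their medians were -0.07 with Kuiyangling and -0.44 with mesalazine against the DSS model and 0.13 for the DSS model against control. Unadjusted p-values were under 0.05 for 0, 2 and 2 of these 7 genes in the 3 comparisons, beside 3.56%, 5.49% and 14.8% of all genes, and DESeq2 called Egr1 with mesalazine against the DSS model (adjusted p = 0.0178) and Fosb for the DSS model against control (1.59e-05). Between the treatments all 7 were higher with Kuiyangling (median 0.85), 2 of them at an unadjusted p under 0.05, beside 1.90% of all genes. Against control the medians were -0.62 with mesalazine and -0.18 with Kuiyangling. At that threshold 2 and 1 were lower, beside 20.0% and 10.3%.

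The genes outside the list whose levels ran most like the listed ones were found by their Pearson correlation over the 8 libraries. It was taken with the mean log2 CPM of the 8 targets minus that of Arntl and Npas2. The 10023 genes ranked were tested genes that averaged 5 CPM or more, without the members and without provisional symbols such as Gm numbers and Rik names. Among the highest were Acaa1b (0.985), Btbd1 (0.984), Tmigd1 (0.975), Malrd1 (0.966) and Enpep (0.965), and among the lowest Tmco3 (-0.991), Ly6e (-0.970) and Hsh2d (-0.962). Acaa1b, a peroxisomal thiolase, was at 44.4 and 34.9 CPM in Kuiyangling mice, 53.9 and 41.6 CPM in mesalazine mice, 15.1 and 25.9 CPM in DSS model mice and 9.91 and 7.03 CPM in controls. It had the order of treated animals above DSS model animals above controls that Dbp had. With Dbp alone Acaa1b (0.973), Bnip3l (0.968) and Ceacam18 (0.953) were among the highest. These correlations are over libraries that share group differences and describe only how the levels ran side by side.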

How the data were processed

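Polyadenylated RNA of colonic mucosa from 8 mice, 2 animals in each of 4 groups, was sequenced from stranded libraries, per the labels' protocols. The deposited counts are whole reads per gene, for which Trimmomatic and HISAT2 are named in the submitters' processing notes. The counter, strand setting, build and annotation are not given in the sources used here. The deposited FPKM values are these counts scaled by the authors to 1 length per gene and to the library total. Groups and replicates came from the labels. The data column of mesalazine replicate 2 spells its group unlike the label and was matched to it by group and replicate number. Counts were fitted with edgeR 4.0.16 in R 4.3.3 (filterByExpr, TMM, quasi-likelihood F test, 1 fit of 8 libraries), and p-values were adjusted over all tested genes. Log2 CPM used a prior count of 2. Alternatives were DESeq2 1.42.0, limma 3.58.1 on log2(FPKM + 1), RLE factors, no filter, the compared groups alone, a replicate block, a gene length offset and each library left out. The biological coefficient of variation was 0.287. The edgeR steps were tested on simulated data. The members, the gene and motif lists and the rule for naming genes (all members, the other clock genes, and the 6 genes most and 4 least correlated with the list and 4 most correlated with Dbp) were chosen with earlier results of these data known. Some genes of these lists are not reported here. P-values of the main fit set a group difference against the spread between these animals. With 2 animals in each group, that spread was estimated over all 4 groups with information shared across genes.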

Additional observations from a re-analysis of the deposited data

How the results depend on the processing

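Genes called (adjusted p under 0.05 by edgeR) numbered 33 for the DSS model against control, 32 for Kuiyangling and 90 for mesalazine against control, and 0 for Kuiyangling against the DSS model, for mesalazine against the DSS model and for Kuiyangling against mesalazine (unadjusted p under 0.05: 476, 735 and 254 genes). In that order of 6 comparisons, edgeR with no filter called 487, 451, 1090, 11, 104 and 3, and DESeq2 435, 349, 982, 13, 91 and 0. The compared groups alone called 19 genes for Kuiyangling against control, 315 for mesalazine against control and 21 for Kuiyangling against the DSS model. Limma on FPKM called 15, 2 and 36 against control. Leaving out 1 library gave 1 to 159, 1 to 171 and 1 to 2717 against control, with 1 each without control 2, and 0 elsewhere.

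The members were chosen on these libraries, so nothing is read from their counts, which stand beside the counts of all genes above. Those were of 17353 genes with no filter or DESeq2 and of 10597 with limma. Of the members, no filter called 5, 5 and 6 against control, and 1 and 3 with Kuiyangling and mesalazine against the DSS model. DESeq2 called 4, 5 and 6 against control, and 2 and 3 against the DSS model. The compared groups alone called 2 with Kuiyangling against the DSS model and 6 with mesalazine against control, and limma on FPKM 1 and 1 for the treatments against control. Leaving out 1 library changed which members were called for both treatments against control. The calls with Kuiyangling were lost without Kuiyangling 1 as well as without control 2, and those with mesalazine were lost without control 2. Among the other clock genes, no filter and DESeq2 called 2 each for the DSS model against control (with Cry2 among them) and 1 each for mesalazine against control (Cry1), DESeq2 called 1 for mesalazine against the DSS model (Alas1), and leaving out 1 library gave 0 to 1 and 0 to 4 against control (the 4 without mesalazine 2, with Clock, Cry1 and Nampt among them). The causes of these shifts were not tested.

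Of 480 member estimates with 1 library left out, 460 kept their sign, and of 420 under the other settings 412 did. Of the 10 genes named for likeness, 6 were also named on FPKM. The 2 replicate numbers do not pair the samples: differences between replicates 2 and 1 correlated across genes by -0.311 to 0.162 between groups. With the replicate block 50, 65 and 132 genes were called against control and 0 elsewhere, with 2 and 4 members for the treatments against control as before. Genes with few counts, such as Ciart in controls and Hlf, are limited by depth.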
